A study of Mus musculus with 10 samples.

Results

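Med13l, Macf1 and Etl4 are 3 long mouse genes named as targets of a set of distal segments that had been deleted by CRISPR/Cas9 in mouse ES cells in earlier work. They were taken by name from the mm10 GENCODE annotation, as 3 of its 21938 protein-coding genes, and account for 3 of the 5 targets in the deletion set of the study. The others are Esrrb and the Ifitm cluster. Each locus was the gene body plus 150 kb upstream of its outermost start, and the deleted segment of each gene lay inside this locus.

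The study built a method for calling long-range chromatin interactions from PLAC-seq, in which an antibody pulls down contacts anchored at a chosen chromatin protein. The values below come from 2 ATAC-seq samples and 2 H3K4me3 ChIP-seq samples of F123 cells, an untreated hybrid mouse ES cell line from a Mus musculus castaneus × S129/SvJae cross. No group with another genotype or treatment was compared, and the cells that carried the deletions were not analysed here. Each assay is given as 1 list of peaks for both of its biological replicates, so no peak has a spread between replicates and no test between samples was possible. The line is kept on a CF1 fibroblast feeder layer, which was left out for the last passage, so the harvested cells could still hold some feeders. The 2 alleles of the hybrid were not separated in the lists.

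The H3K4me3 list held 33487 peaks with a median width of 1135 bp. The ATAC-seq list held 179109 peaks with a median width of 261 bp, and gives positions only. For H3K4me3, each peak has 1 fold enrichment, its signal relative to the background estimated by the peak caller, and 1 −log10 q, the certainty of the call. As a check of the cell type, all 8 ES cell markers (such as Pou5f1, Nanog and Sox2) carried both marks over a start. Of 8 fibroblast markers, 5 had both, from 3.39-fold enrichment at Dcn to 20.4 at Col1a2, while Col3a1, Postn and Lum had neither. Over all protein-coding genes, 66.7% had H3K4me3 and 69.9% ATAC-seq over a start, and the share with both was not computed. The part of feeder cells in the peaks below was not tested.

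H3K4me3, trimethylation of lysine 4 on histone H3, is deposited around active and poised promoters, while weaker H3K4me3 is also found at many distal enhancers. ATAC-seq marks DNA that the Tn5 transposase can enter, which includes promoters, enhancers and insulators. Med13l encodes a subunit of the kinase module of Mediator, the complex that links transcription factors to RNA polymerase II. Macf1 encodes a spectraplakin, a very large protein that joins actin filaments to microtubules. Etl4, also called Skt or sickle tail, is known for its role in the notochord and the intervertebral discs. A long gene often has several promoters, and transcripts from an inner start can code for a shortened protein.

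The deleted segment of Med13l covered chr5:118432886-118452483 (mm10), 19.6 kb between genes, with its centre 118 kb upstream of the Med13l start. That of Macf1 covered chr4:123618309-123637993, 19.7 kb. That of Etl4 covered chr2:20642059-20658958, 16.9 kb. The latter 2 were intronic and held no exon of any transcript: 5 Macf1 transcripts and 12 Etl4 transcripts spanned them. Together the 3 segments held 20 ATAC-seq peaks and 4 H3K4me3 peaks.

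The DNA at the most extended open site of each deleted segment is shown first, as 300 bases around the middle of its widest ATAC-seq peak, read from the GRCm38.p6 (mm10) FASTA of RefSeq. The plus strand is printed 5′ to 3′. Capitals mark a match, on either strand, to one of the motifs searched: CTCF (AGGGGGCGC, AGGTGGCGC or AGGTGGCAG), octamer (ATGCAAAT), KLF (GGGTGTGG), E2F (TTTCCCGC), NRF1 (GCGCATGCG), SP (GGGGCGGGG), ETS (CCGGAAGT) and YY1 (AAGATGGCG), the SOX heptamer CATTGTT, the ESRRB site AAGGTCA, the core promoter box TATAAA and the box named CCAAT. No motif in this list overlapped another match in the sequences printed.
Med13l segment, chr5:118436777-118437076, plus strand: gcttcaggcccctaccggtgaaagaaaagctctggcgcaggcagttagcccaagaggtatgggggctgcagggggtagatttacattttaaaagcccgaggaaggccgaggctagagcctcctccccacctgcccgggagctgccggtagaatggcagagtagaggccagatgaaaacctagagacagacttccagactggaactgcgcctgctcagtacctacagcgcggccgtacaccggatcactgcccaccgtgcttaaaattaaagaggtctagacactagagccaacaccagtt
Macf1 segment, chr4:123624571-123624870, plus strand: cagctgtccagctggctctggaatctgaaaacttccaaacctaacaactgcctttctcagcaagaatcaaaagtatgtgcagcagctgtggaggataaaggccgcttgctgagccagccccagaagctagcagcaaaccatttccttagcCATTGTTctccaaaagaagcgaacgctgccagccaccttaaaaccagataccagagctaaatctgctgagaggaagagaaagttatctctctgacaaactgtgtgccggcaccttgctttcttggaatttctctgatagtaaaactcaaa
Etl4 segment, chr2:20654964-20655263, plus strand: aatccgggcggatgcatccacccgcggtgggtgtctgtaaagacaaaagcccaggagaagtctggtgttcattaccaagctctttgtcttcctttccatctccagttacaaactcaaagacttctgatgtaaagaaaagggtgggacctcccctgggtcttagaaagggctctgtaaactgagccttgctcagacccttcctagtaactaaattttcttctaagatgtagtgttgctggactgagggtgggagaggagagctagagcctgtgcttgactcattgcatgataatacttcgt

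These 3 sites differed in base composition. The Med13l site had 56.3% G+C, above 74.3% of the 178701 windows of the same length centred on ATAC-seq peaks, and a CpG ratio (observed over expected from its C and G content) of 0.504, above 81.4% of them. The Macf1 site had 46.7% G+C and a CpG ratio of 0.248, and the Etl4 site 47.7% and 0.295, against medians of 51.3% and 0.242 over all windows. The only match was the SOX heptamer of the Macf1 site, which 4.21% of all windows held. In the 300 bases at the middle of each of the 20 open sites of the 3 segments, AAGGTCA, the half-site of the orphan receptor ESRRB, occurred in 3 (1 in each segment, against 6.26% of all windows), SOX in 2 and KLF in 2 (5.51% of all windows), all 4 of these in Macf1, and a CTCF core in 1 (3.86%), also in Macf1. CCAAT occurred in 6 and TATAAA in 1, against 33.1% and 11.4% of all windows. The octamer of the POU factors occurred in none, against 3.55% of all windows, and neither did YY1 (3.26%), SP (4.22%), ETS (0.999%), E2F (0.511%) or NRF1 (0.339%). A match describes the letters and is not evidence of binding.

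The promoter at the start with the strongest H3K4me3 peak of each gene is shown as 250 bases before and 50 bases after the start, on the strand of the gene, from the same FASTA.
Med13l promoter, chr5:118560429-118560728, plus strand: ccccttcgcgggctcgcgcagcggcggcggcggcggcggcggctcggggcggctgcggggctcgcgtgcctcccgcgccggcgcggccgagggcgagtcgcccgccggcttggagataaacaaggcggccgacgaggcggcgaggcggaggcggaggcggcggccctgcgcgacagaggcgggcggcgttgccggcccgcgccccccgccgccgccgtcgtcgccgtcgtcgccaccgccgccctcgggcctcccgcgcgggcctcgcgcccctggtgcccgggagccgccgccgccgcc
Macf1 promoter, chr4:123664703-123665002, minus strand: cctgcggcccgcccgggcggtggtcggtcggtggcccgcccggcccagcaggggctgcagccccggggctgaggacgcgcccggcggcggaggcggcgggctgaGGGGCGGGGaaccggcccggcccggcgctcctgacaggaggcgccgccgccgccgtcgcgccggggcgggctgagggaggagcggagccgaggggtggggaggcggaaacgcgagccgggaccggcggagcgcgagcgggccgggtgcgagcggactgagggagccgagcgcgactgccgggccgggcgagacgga
Etl4 promoter, chr2:20519541-20519840, plus strand: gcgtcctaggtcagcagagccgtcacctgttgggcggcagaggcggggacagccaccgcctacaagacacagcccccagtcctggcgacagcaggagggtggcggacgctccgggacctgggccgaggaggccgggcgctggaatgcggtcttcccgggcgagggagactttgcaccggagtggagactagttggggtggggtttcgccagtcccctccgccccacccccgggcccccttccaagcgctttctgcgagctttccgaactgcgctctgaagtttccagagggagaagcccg

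At the printed GENCODE starts, the promoter windows of Med13l and Macf1 ranked among the richest in G and C, set against windows at RefSeq starts. Their G+C content was 85.3% and 83.3%, higher than in 99.9% and 99.7% of the 32851 RefSeq promoters, whose median was 52.7%. The Med13l window held 65 CpGs, the Macf1 window 51 and the Etl4 window 24. The Etl4 window had 68.3% G+C, above 88.0% of promoters. These ranks depend on the start used. At RefSeq starts under the same H3K4me3 peaks, G+C was 79.0% in Med13l (118560330), 52.3% in Macf1 (123665476) and 47.3% in Etl4 (20519513). Those of Macf1 and Etl4 lay below the RefSeq median. The SP box of the Macf1 promoter, 146 bases before the start, was the only motif match in the printed windows, and 11.4% of all promoters held one. The other motifs occurred in 1.07% (E2F) to 37.4% (CCAAT) of all promoters. At the RefSeq starts named above, the Med13l window held SP and CCAAT matches, and the Macf1 and Etl4 windows held CCAAT.

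In GENCODE, the starts of the 3 genes fell into 28 groups when starts within 500 bp of each other were joined. A group was covered when a peak lay over any of its starts. H3K4me3 peaks covered 9 of the 28 groups (32.1%), against 36.1% of the 52546 start groups of all protein-coding genes. ATAC-seq peaks covered 11 (39.3%), against 36.2%. Both marks lay over 8 groups, ATAC-seq alone over 3 (10.7%), H3K4me3 alone over 1 and neither over 16 (57.1%). The shares covered by H3K4me3 and by ATAC-seq were near the background. No background share was available for both marks, for either alone or for neither. Each of the 3 genes had at least 2 groups under H3K4me3, as did 15.3% of protein-coding genes. That share includes genes with any number of start groups, whereas Med13l, Macf1 and Etl4 had 4, 12 and 12. In Med13l the 2 covered groups lay under the same peak. At least 1 group was covered by H3K4me3 in 66.7% of protein-coding genes and by ATAC-seq in 69.9%.

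**Figure D1:**
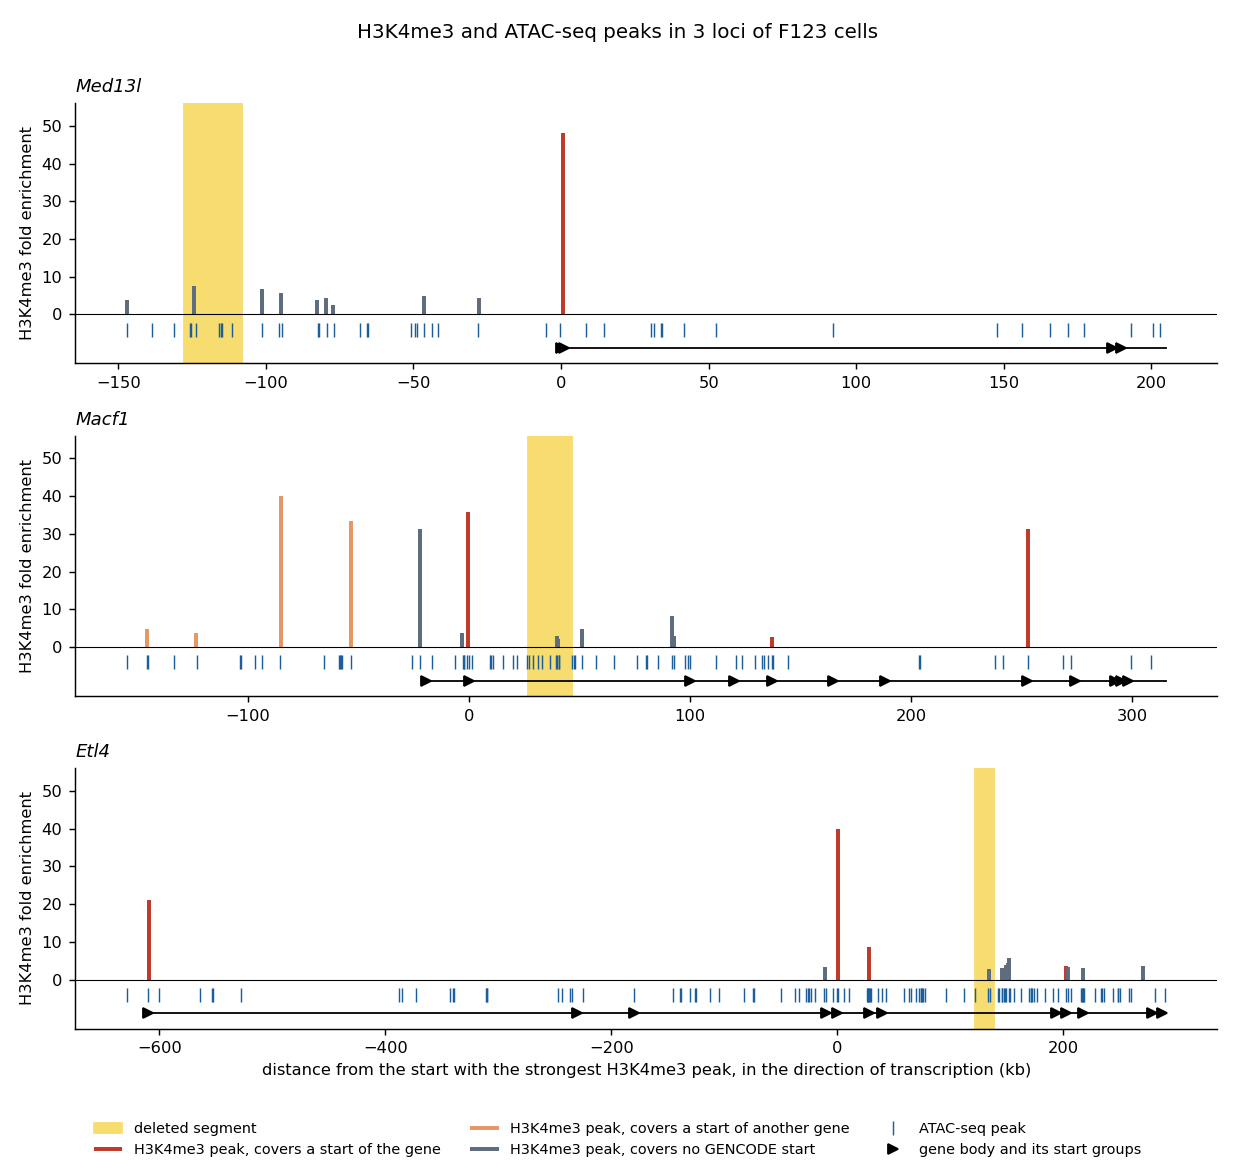
H3K4me3 fold enrichment (bars, vertical axis, by whether the peak covers a GENCODE start), ATAC-seq peaks (ticks) and start groups (arrowheads on the gene body) along each locus, with distance in kb from the start with the strongest H3K4me3 peak on the horizontal axis. The deleted segment (yellow band) lies 118 kb upstream of the promoter in Med13l, and inside the gene 36.6 kb and 131 kb downstream of the strongest start in Macf1 and Etl4.

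Med13l (chr5:118560679-118765438, plus strand, 205 kb) had 1 strong promoter and no other H3K4me3 peak in its gene body. The promoter peak, chr5:118559322-118563071, spanned 3750 bp and was 48.1-fold enriched (−log10 q 886), more than 95.7% of the list. It covered the first start group, at 118560679, with 3 transcripts, and the non-coding start at 118561575. The ATAC-seq peak over the promoter, chr5:118559646-118561001, was 1356 bp, the widest of this locus, and covered the first group only. The other 2 start groups, 118747319 and 118750387, are those of non-coding transcripts near the 3′ end of the gene, and neither mark lay over them, with the nearest H3K4me3 peak 129927 and 126859 bp away.

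Macf1 (chr4:123349633-123684360, minus strand, 335 kb) had 12 start groups, of which 3 were covered by H3K4me3 and 4 by ATAC-seq. The strongest was 123664752, the start of 1 coding transcript, under an H3K4me3 peak at chr4:123662460-123667587 that was 35.8-fold enriched (−log10 q 664). At 5128 bp it was wider than 98.9% of the list, held 6 ATAC-seq peaks, and also covered the start of Gm12925, an antisense gene, so the signal cannot be assigned to 1 strand. An inner start, 123412228, lay 253 kb further into the gene under a peak of 31.2-fold enrichment (−log10 q 548, 2254 bp) and an ATAC-seq peak of 1224 bp. The coding starts around 123527648 had a weak peak, 2.69-fold enrichment with a −log10 q of 9.02. The start at 123564694 had an ATAC-seq peak of 479 bp alone.

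The outermost GENCODE start of Macf1, at 123684360, was not marked. This position is shared by 4 coding transcripts and is a curated start in RefSeq too, yet no peak of either assay lay within 1000 bp of it. The nearest H3K4me3 peak, chr4:123686048-123687953, lay 1688 bp further upstream, 31.2-fold enriched (−log10 q 511), with the widest ATAC-seq peak of the 3 loci (1594 bp). It covered no GENCODE start, but did cover 123687802, where RefSeq places the start of 6 predicted Macf1 models and no curated one. The 300 bases at 123684360 had 40.3% G+C and those at 123687802 had 47.3%. The other 7 unmarked groups of Macf1 each began coding transcripts too.

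Etl4 (chr2:19909780-20810713, plus strand, 901 kb, longer than 99.6% of protein-coding genes) had 12 start groups, 4 covered by H3K4me3 and 6 by ATAC-seq. The outermost start, 19909780, lay under a peak of 21.1-fold enrichment (−log10 q 207, 2195 bp) and an ATAC-seq peak of 1455 bp. The strongest peak of the locus lay far inside the gene, at the starts 20519791 to 20519828, with 39.9-fold enrichment, a −log10 q of 497 and a width of 3392 bp. The non-coding starts at 20547980 to 20548022 lay under a peak of about the same width, 3455 bp, but of 8.51-fold enrichment. The group of starts from 20722378 to 20722625 had a peak of 3.67-fold enrichment and 432 bp, chr2:20722401-20722832, which covered the start at 20722625 but began just past 20722378.

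At 2 Etl4 starts only ATAC-seq was found. The start at 20510047, curated in RefSeq, was covered by an ATAC-seq peak of 412 bp, while an H3K4me3 peak of 3.37-fold enrichment ended 319 bp before it. The start at 20559935 was covered by an ATAC-seq peak of 486 bp, with the nearest H3K4me3 peak 10044 bp away. Neither mark lay over 6 of the 12 groups, among them 3 groups of coding transcripts at 20289913, 20339824 and 20737314, the last with peaks 33 bp (ATAC-seq) and 114 bp (H3K4me3) away.

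The marked GENCODE starts were richer in CpG. Over the 9 groups covered by H3K4me3, the 300-base window at the first start of the group had a median G+C of 64.3% (range 42.0 to 85.3%) and a median CpG ratio of 0.687. Over the other 19 the medians were 43.7% (35.7 to 55.0%) and 0.209. The ranges overlapped, since the weak Etl4 start at 20547980 had 43.7% G+C, and the unmarked Macf1 start at 123372367 had a CpG ratio of 0.673. The lowest value of the covered groups, 42.0%, belongs to the window at 20722378, which itself lay outside the peak of its group. At RefSeq starts the overlap was wider. There the CpG ratio ran from 0.0880 to 0.984 in groups under H3K4me3 and from 0 to 0.449 in the others, and no medians were computed.

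**Figure D2:**
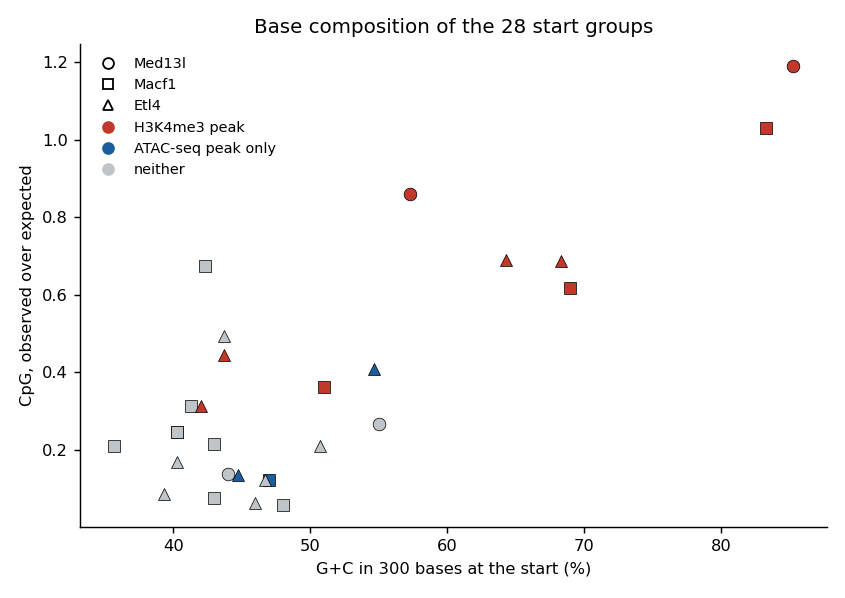
G+C content (horizontal axis, percent) and CpG observed over expected (vertical axis) in 300 bases at the first start of each of the 28 start groups, by gene (symbol) and by the peak over any start of the group (colour). The 6 groups above 57% G+C all carry H3K4me3, while below that value groups with and without H3K4me3 overlap.

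Among the best H3K4me3 peaks at the starts of the 14637 marked protein-coding genes, that of Med13l had a higher fold enrichment than 88.9%, that of Etl4 than 73.6% and that of Macf1 than 63.2%. By width, the order was different: Macf1 exceeded 97.2%, Med13l 89.7% and Etl4 85.2%. All 7 genes of the Mediator kinase module had both marks at a start. Med13l had the highest fold enrichment among them, ahead of Cdk8, the kinase (40.1), and its paralog Med13 (39.6), and Ccnc, the cyclin, had the lowest (26.6). All 26 other Mediator genes were marked as well, from 19.0 at Med31 to 62.6 at Med6. Of the 7 plakin genes 6 were marked. For comparison, 66.7% of all protein-coding genes had H3K4me3 and 69.9% had ATAC-seq over a start. Dst, the paralog of Macf1, had 35.7-fold enrichment, close to Macf1, with 4 of its 13 start groups covered. Plec, another cytoskeletal linker, had 26.8 and Eppk1 no peak of either assay. Srcin1, the relative of Etl4, had 25.5.

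Outside the starts, the 3 loci held different patterns of weak H3K4me3. In Med13l, 9 of the 10 peaks covered no annotated start, and all 9 lay upstream, between 27.8 and 147 kb from the promoter, with fold enrichments of 2.42 to 7.49. ATAC-seq peaks overlapped 8 of these 9, near the share of the whole list, in which 87.1% of H3K4me3 peaks overlapped one. In Macf1, 7 of 14 peaks covered no GENCODE start, with a median of 3.63, the peak at the RefSeq start (31.2) among them. Another 4 lay over starts of the neighbours upstream: Ndufs5, a subunit of respiratory complex I (33.3), Akirin1 (40.1) and Rhbdl2 (3.73 and 4.71). In Etl4, 10 of 14 peaks covered no start, with fold enrichments of 2.75 to 5.64, and the 150 kb upstream held no H3K4me3 peak other than the promoter's. The plot of peak strength against width shows that peaks over a start and peaks away from one overlapped in strength, since the weakest peak over a start had 2.69 in Macf1 and 3.67 in Etl4.

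**Figure D3:**
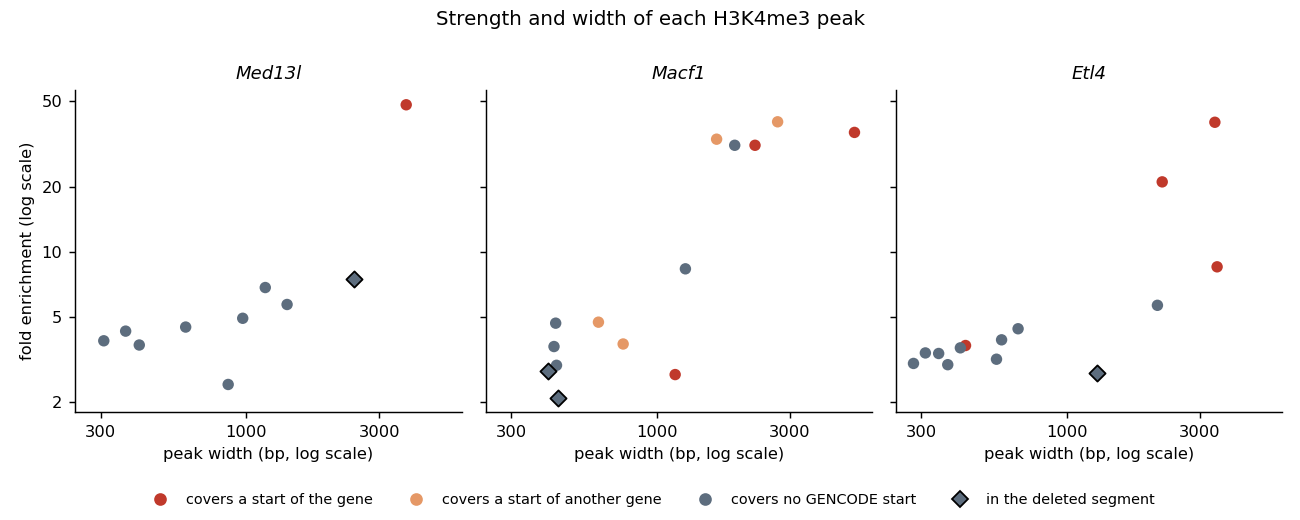
Width (horizontal axis, bp, log scale) and fold enrichment (vertical axis, log scale) of each H3K4me3 peak in the loci of Med13l (10 peaks), Macf1 (14) and Etl4 (14). Diamonds, the peaks in the deleted segments, lie at 7.49 in Med13l, above the 8 other peaks away from a start, and at 2.10, 2.78 and 2.75 in Macf1 and Etl4, among the weakest of those loci.

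The Med13l segment held the H3K4me3 peak with the highest fold enrichment away from the promoter. This peak, chr5:118435113-118437540, spanned 2428 bp and was 7.49-fold enriched (−log10 q 37.0), above 46.2% of the list. The next ones toward the promoter, both outside the segment, had 6.82 and 5.69 but higher −log10 q values, 54.1 and 44.9. The segment held 7 ATAC-seq peaks in 3 clusters separated by more than 2 kb. The first cluster comprised sites of 125, 793 and 1104 bp (118434807-118437478), the latter 2 under the H3K4me3 peak. The second comprised sites of 741, 202 and 505 bp (118444478-118446180), with no H3K4me3, and the last was a single site of 434 bp (118449004-118449437). Open sites of similar width lay outside the segment, at chr5:118464720-118465873 (1154 bp) and chr5:118458798-118459800 (1003 bp), both under H3K4me3 peaks.

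The Macf1 segment held more open sites, with a lower median width. Its 10 ATAC-seq peaks ranged from 105 to 599 bp (median 300 bp), against a median of 505 bp in the Med13l segment. The first, chr4:123617960-123618424, crossed the edge with 116 of its 465 bp inside. A set of 4 sites, of 105, 226, 599 and 419 bp, was packed into 1971 bp (123623728-123625698), a single site of 359 bp followed, and 4 more of 180, 485, 240 and 223 bp were spread over 5722 bp at the side toward the promoter. The 2 H3K4me3 peaks, of 444 and 407 bp, lay over the packed sites. Their fold enrichments, 2.10 (−log10 q 3.03) and 2.78 (7.10), were the lowest and the third lowest of the 14 peaks in the locus, and exceeded only 0.245% and 4.85% of the whole list. The strongest intronic peak away from a GENCODE start lay outside the segment, at chr4:123572461-123573728, with 8.33-fold enrichment.

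The Etl4 segment held 3 ATAC-seq peaks. One, chr2:20641870-20642487, crossed the edge with 429 of its 618 bp inside. The other two, of 476 bp (20653010-20653485) and 909 bp (20654659-20655567), lay close together. An H3K4me3 peak, chr2:20653669-20654947, began between them and overlapped the wider one, and its fold enrichment of 2.75 (−log10 q 7.10) was the lowest of the 14 in the locus. A denser group of sites lay just past the end of the segment. In the 20 kb on that side 10 ATAC-seq peaks and 5 H3K4me3 peaks of 2.99 to 5.64-fold enrichment were found, the first H3K4me3 peak 6848 bp from the edge. The −log10 q of these 5 ran from 5.78 to 28.1, on both sides of the 7.10 inside the segment. In the 20 kb on the other side there was 1 ATAC-seq peak and no H3K4me3 peak.

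**Figure D4:**
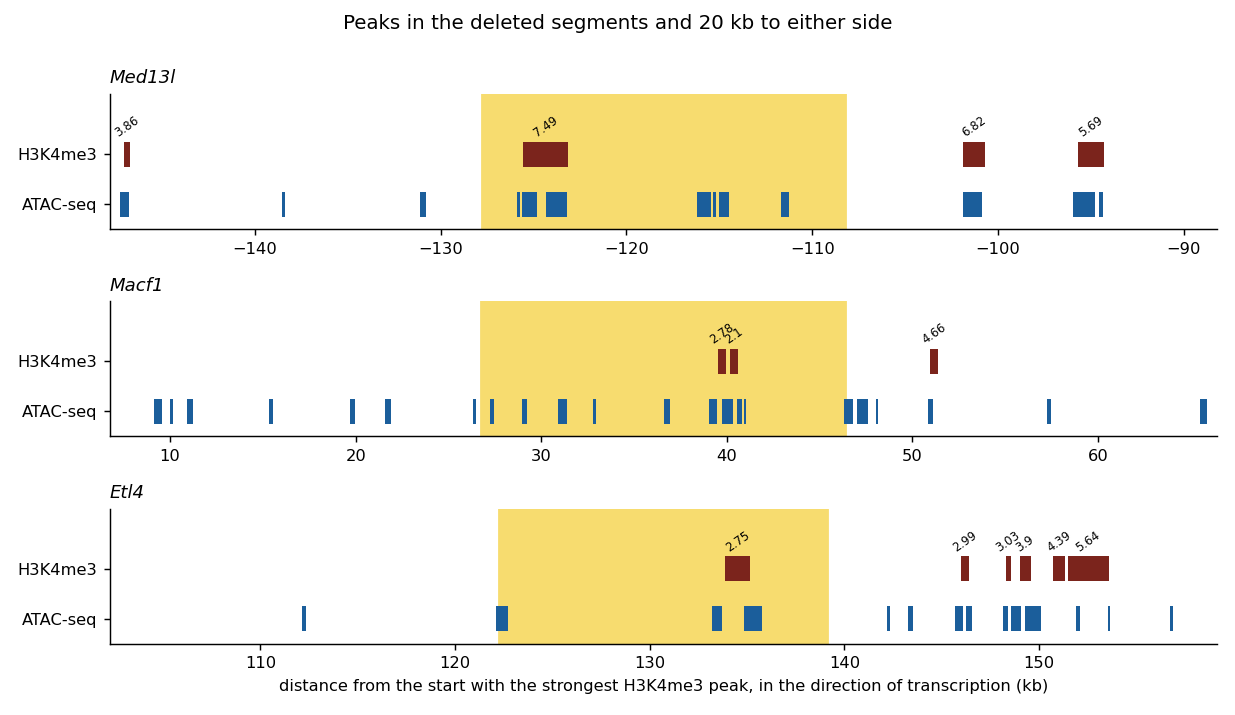
ATAC-seq and H3K4me3 peaks drawn to scale in the deleted segments (yellow) and 20 kb to either side, with the fold enrichment written above each H3K4me3 peak and distance in kb from the start with the strongest H3K4me3 peak on the horizontal axis. The segments hold 7, 10 and 3 ATAC-seq peaks. For Etl4 the 5 H3K4me3 peaks beyond the right edge all have a higher fold enrichment than the 2.75 inside.

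The deleted segments were set against the rest of their loci. The study describes them as enhancers deleted in mouse ES cells, so they are not a random draw from these loci. The contrasts here and the ranks below are descriptions. The Med13l segment held 3.57 ATAC-seq peaks per 10 kb and 19.9% of its bases lay under them, against 1.16 per 10 kb and 4.32% in the rest of the locus. The upstream region alone, without the segment, held 1.69 per 10 kb. For Macf1 the values were 5.08 per 10 kb and 15.0% against 1.42 and 5.26%. For Etl4 they were 1.78 and 10.7% against 1.05 and 3.31%. The flanks narrowed the contrast for Macf1 only in part: the 20 kb on the promoter side held 3.50 per 10 kb and the other side 2.50. For Med13l both flanks held 1.50. For Etl4 the contrast was reversed on the downstream side, where the 20 kb held 5.00 per 10 kb, more than the segment, while the upstream side held 0.500.

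Windows of the length of each segment were moved along its locus in steps of 1000 bp. In Med13l, 325 of 336 windows (96.7%) held fewer peaks than the segment and 1 held more, with 8, and this window shared bases with the segment. In Macf1, 450 of 466 windows (96.6%) held fewer and 3 held more, up to 11. Among those that held 10, like the segment, were windows around the strongest start and clear of the segment, such as those centred at 1.3 and 6.3 kb. By bases under peaks the densest Macf1 window lay over that start, with 3986 bases against 2952 in the segment. In all, 38 windows held more bases than the Macf1 segment. In Etl4, 718 of 1035 windows (69.4%) held fewer and 194 held more. The densest Etl4 window, with 10 peaks, began 821 bp past the segment. By bases under peaks the segments exceeded 98.2%, 91.8% and 90.6% of windows, so that Etl4 ranked higher by bases than by number. Of autosomal tiles of the same length, 1.63% held at least as many peaks as the Med13l segment, 0.121% as many as the Macf1 segment and 16.8% as many as the Etl4 segment. Neighbouring windows share peaks, so these ranks are a description.

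**Figure D5:**
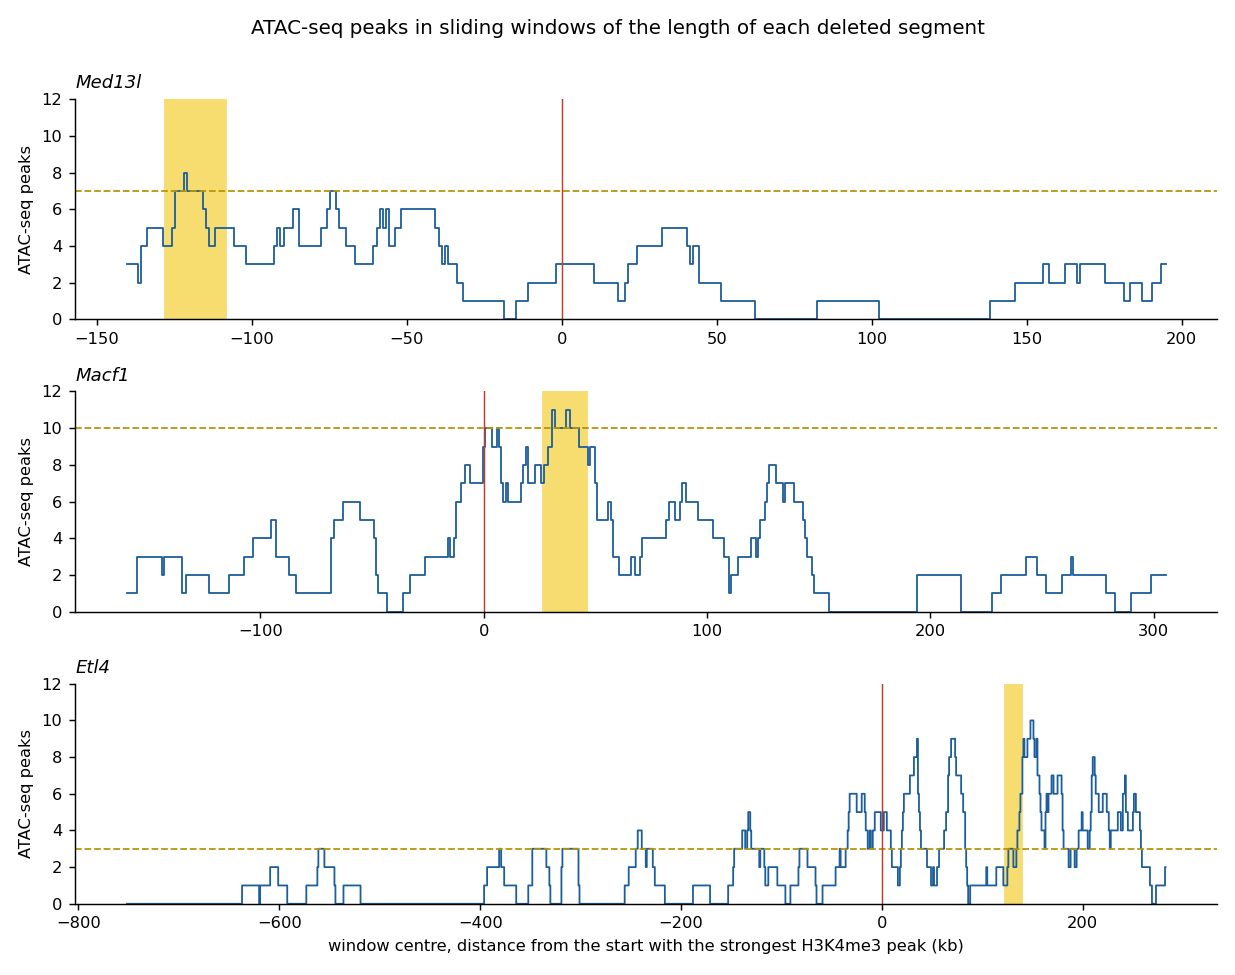
Number of ATAC-seq peaks (vertical axis) in windows of the length of the deleted segment, by the distance in kb of the window centre from the start with the strongest H3K4me3 peak (horizontal axis, red line at the start). The dashed line is the count in the segment (7, 10 and 3 peaks) and the yellow band its position. The windows with the most peaks touch the segment in Med13l and Macf1 and lie just past it in Etl4. In Macf1, windows around the strongest start also reach the dashed line.

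The open sites of these loci were unevenly spread. Med13l had 46 ATAC-seq peaks, 28 of them upstream and 14 intronic, and a stretch of 55.2 kb inside the gene held none. Macf1 had 76, of which 52 were intronic, with a longest empty stretch of 59.0 kb, also inside the gene. Etl4 had 112, all but 1 in the gene body, and an empty stretch of 140 kb between its outermost and its next start. In the gene bodies the density was 0.879, 1.73 and 1.23 per 10 kb, above that of 67.8%, 93.7% and 83.7% of the 2492 protein-coding genes of at least 100 kb, whose median was 0.636. Of the ATAC-seq peaks in each locus, 23.9%, 26.3% and 18.8% overlapped an H3K4me3 peak, against 21.1% of all ATAC-seq peaks. The gene bodies held 1, 9 and 14 H3K4me3 peaks, against a median of 2.00 in those long genes. These counts are not scaled by gene length. Per 10 kb of gene body they came to 0.0488 in Med13l, 0.269 in Macf1 and 0.155 in Etl4.

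The position of H3K4me3 in the segments fixes how the bin pairs of an H3K4me3 PLAC-seq experiment are classed. A pair of 5000 bp bins is in the “AND” set when both bins hold an H3K4me3 peak and in the “XOR” set when 1 does. Between the promoter peak of Med13l and its segment there were 10 pairs, of which 2 were “AND” and 8 “XOR”. From the Macf1 start at 123664752 there were 10 pairs, 4 “AND” and 6 “XOR”. The study listed only pairs more than 50 kb apart. This start lay 36.6 kb from the segment centre, and the unmarked outermost GENCODE start lay 56.2 kb from it. The start paired with the segment in the study may thus be another one, for which bin pairs were not counted. For Etl4 the nearest marked start group was 20722378 to 20722625, downstream of the segment, with 4 pairs, 1 “AND” and 3 “XOR”. From the strongest Etl4 start, 20519791, there were 8 pairs, 2 “AND” and 6 “XOR”. ATAC-seq peaks lay in 4 of the 5 bins of the Med13l segment, in 5 of 5 in Macf1 and in 3 of 4 in Etl4.

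The segments of the other 2 targets were shorter and held similar marks. The Esrrb segment, of 8.22 kb, had 5 ATAC-seq peaks (6.08 per 10 kb, 28.1% of bases) and an H3K4me3 peak of 4.09-fold enrichment. The segment of the Ifitm cluster, of 7.00 kb, had 3 (4.29 per 10 kb, 15.8%) and a peak of 3.73. All 5 deleted segments held at least 3 ATAC-seq peaks and at least 1 H3K4me3 peak. At least 3 ATAC-seq peaks also lay in 16.8% of autosomal tiles of the length of the Etl4 segment. No such share was computed for H3K4me3 or for the lengths of the Esrrb and Ifitm segments. Among the 5, Med13l had the H3K4me3 peak with the highest fold enrichment and Etl4 the lowest density of open sites.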

How the data were processed

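ATAC-seq and H3K4me3 ChIP-seq were each done on 2 biological replicates of F123 cells. For ATAC-seq the authors aligned reads to mm10 with Bowtie 1.1.2, removed duplicates with SAMtools, shifted read ends by 4 bp to the Tn5 cut, called peaks with MACS2 2.1.1.20160309 and, using bedtools 2.27.1, kept those pooled peaks that both replicates had. The H3K4me3 list came from the ENCODE histone ChIP-seq pipeline at default parameters, and its aligner and threshold are not given in the sources used here. The deposited fold enrichment is a ratio to the caller's background, and q is deposited as −log10. A deposited score and the p column were not used here. Neither deposited list holds read counts, so depth is unknown and faint sites may be missing. PLAC-seq and input samples were not analysed here.

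A peak lay in a region when 1 bp or more overlapped, and covered a start when the start lay inside it. Starts were taken from GENCODE M21, and sequence and alternative starts from RefSeq of the same build (GRCm38.p6). The deleted segments are the coordinates used by the study as its design. The interval code was tested on simulated data, and the counts in the segments were checked against bedtools 2.31.1. Python 3.11.15, numpy 2.4.6 and matplotlib 3.10.9 were used.

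The genes and lists were chosen with earlier results of these data known. Named were, beside these genes, those with a start in a locus, Esrrb and the Ifitm cluster, and up to 4 examples of each list. Named peaks were those at starts and in segments, the strongest H3K4me3 peaks and the widest ATAC-seq peaks of each locus.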

Additional observations from a re-analysis of the deposited data

How the results depend on the processing

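The lists give 1 value for both replicates, so no replicate could be left out. No paired analysis was possible because both replicates of an assay share 1 list. Of 77 values recomputed under an alternative, 50 were counted as unchanged and 27 as moved. A count or density was unchanged within 1.5 times of its value, and a share within its 95% Wilson interval, which is narrow over many bases or windows. Changes at the edge of this margin were counted as unchanged, such as Etl4 start groups from 12 to 8 with RefSeq and Etl4 groups under H3K4me3 from 4 to 6 within 1000 bp. With RefSeq starts, chosen after seeing the data, Med13l had 1 start group, 1 under H3K4me3, and Macf1 had 4, 1 under ATAC-seq. Counting peaks within 1000 bp, ATAC-seq reached 2 Med13l groups. With the widest 50% of ATAC-seq peaks, the density outside the segments was 0.656 (Med13l), 0.645 (Macf1) and 0.484 (Etl4) per 10 kb, the Macf1 segment held 2.54 per 10 kb, and 18.3% (Med13l) and 10.0% (Macf1) of bases lay under peaks. The share of windows with less was 98.5% for Med13l at steps of 5000 bp, and by bases 98.2%, 91.8% and 90.6% for Med13l, Macf1 and Etl4. At a −log10 q of at least 5, 1 H3K4me3 peak was left in the Macf1 segment. With a peak put in the bin of its midpoint, Med13l had 1 “AND” and 4 “XOR” pairs and Macf1 2 and 3. With 10000 bp bins Med13l had 4 and 2, Macf1 2 and 1, and Etl4 1 “XOR” pair. From the strongest Etl4 start, chosen after seeing the data, there were 2 and 6. Peaks too faint for either list cannot be seen, and the depth that sets this limit is unknown.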
